A study of Bos taurus with 3 samples.

Results

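Chemokines, cytokines and their receptors are the signals by which cells of the mammary gland call in, hold and instruct leukocytes. The genes described here are those whose symbol begins as the names of the CC, CXC, CX3C and XC chemokines and receptors, interleukins, tumour necrosis factor (TNF) genes, colony stimulating factors or LIF do. The receptor gene CSF1R is not counted among them. These 79 gene entries, with 78 distinct symbols, were found among the 9154 gene entries of the 3 deposited tables. By role they are 11 CXC chemokines, 13 CC chemokines, 9 chemokine receptors, 15 interleukins and colony stimulating factors, 13 interleukin receptors, 4 TNF family ligands, 9 TNF receptors and 5 TNF-induced proteins. RefSeq accessions matched for 74 members. Current symbols differ for 3 of them: CXCR7 is now ACKR3, IL8 is CXCL8, and 1 of the 2 entries named CXCL2 is now CXCL3, as it is called below.

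Mammary tissue came from 18 Holstein cows in the second parity, with 6 cows at each of 3 times: dry gland 35 d before parturition (−35 d), 7 d before parturition (−7 d), and 3 d after parturition (+3 d). Tissue of the 6 cows of a time was pooled before RNA isolation, and 1 digital gene expression library was sequenced per pool. Digital gene expression counts short tags that begin at CATG sites of transcripts, and a gene's count here is the sum of its tags. The step from −35 d to −7 d is called stage I of lactogenesis and the step from −7 d to +3 d stage II.

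Chemokines bind receptors on leukocytes and guide their movement along a gradient. Atypical receptors such as CXCR7 bind chemokines and remove them without the usual signal. Interleukins and TNF act through receptor chains that are often shared, so the transcript of a common chain serves several ligands. In the mammary gland these genes are known for the traffic of macrophages, lymphocytes and plasma cells, and for the response to infection.

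The libraries held 5914422, 5593237 and 5845821 clean tags at −35 d, −7 d and +3 d. At these depths 3 tags equal 0.507 to 0.536 TPM (tags scaled to 1000000 clean tags). A fold from 0 tags is counted against this level. TPM is a share of the library and is not corrected for anything else. Milk protein transcripts took a growing share of that library: the casein gene CSN2 stood at 735.3 TPM at −35 d, 12496 at −7 d and 64463 at +3 d. Among all genes that averaged 1 TPM or more over the libraries, the middle log2 ratio was below 0, at −0.19 in stage I, −0.31 in stage II and −0.53 from −35 d to +3 d. Trimmed mean (TMM) scaling raised every log2 ratio by 0.19, 0.31 and 0.50 in those comparisons, and calls that it removes are named.

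Members were called higher or lower where the Audic-Claverie test gave a false discovery rate (FDR) of at most 0.001 and the ratio was at least 2-fold. With 1 library per time there was no replicate check. The test compares these libraries and not the conditions, and all 95% intervals cover counting error only. Copies made by PCR are not independent molecules, so even that error may be larger than the intervals show. With an assumed coefficient of variation of 0.2 between replicate pools, edgeR's exact test kept 2 of the 39 calls given below, those of CXCL13 and CCL21 from −35 d to +3 d. The tissue is a mixture, so fewer cells of a type and less RNA per cell cannot be told apart.

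Of the 79 members, 74, 66 and 70 were listed with tags at −35 d, −7 d and +3 d, and 53 had more than 3 tags in every library. Summed over members the level was 2051 TPM at −35 d, 1418 at −7 d and 1819 at +3 d. CXCL14 held much of this, and without it the sums were 1553, 1068 and 1205 TPM. The lowest sum was that of the −7 d library in both cases.

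In stage I, 12 of the 78 members tested were lower (15.4%) and 0 were higher, where 6.45% of all genes tested were lower and 2.62% higher. TMM scaling left 9 lower (11.5%) and 0 higher, against 3.90% and 4.22% of all genes. In stage II, 6 of 72 members were higher (8.33%) and 3 lower (4.17%), against 3.12% and 10.4% of all genes. TMM scaling made these 10 higher (13.9%) and 3 lower (4.17%), against 5.87% and 4.90%. From −35 d to +3 d, 3 of 78 members were higher (3.85%) and 15 lower (19.2%), against 2.33% and 16.3% of all genes. Under TMM scaling that comparison had 8 higher (10.3%) and 9 lower (11.5%), against 6.23% and 4.94%. A ratio of 2-fold alone, with 0.5 tags added and no test, took in 4 members as higher and 26 as lower in stage I, against 8.09% and 18.5% of all genes. It took in 15 and 7 in stage II (10.7% and 19.4% of all genes), and 8 and 30 from −35 d to +3 d (7.49% and 29.3%). These comparisons share libraries pairwise, so their counts are not independent of each other. The counts by role and by gene list below are to be read beside these shares of all genes.

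**Figure D1:**
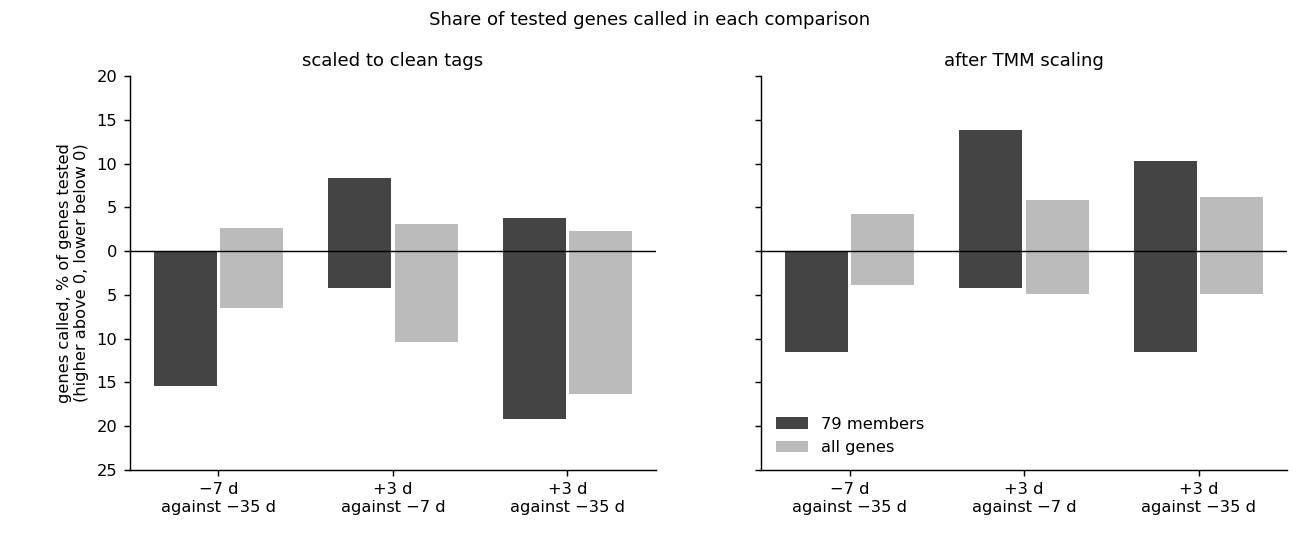
Bars give the percentage of tested genes called higher (above 0) or lower (below 0) in each comparison, for the 79 members (dark) and all genes (light), with levels scaled to clean tags (left) or after TMM scaling (right). In stage I 15.4% of members against 6.45% of all genes were lower, and from −35 d to +3 d the members' split of 3 higher and 15 lower became 8 and 9 under TMM scaling.

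Of the members, 56 averaged 1 TPM or more. Their median log2 ratio in stage I was −0.58, and 45 of the 56 lay below 0 (80.4%). The same median over all genes was −0.19, and 62.5% of them lay below 0. Under TMM scaling these shares were 71.4% of the members and 50.1% of all genes. In stage II the members' median was 0.10 and that of all genes −0.31. From −35 d to +3 d the members' median was −0.43 and that of all genes −0.53. TMM scaling turned the members' median to 0.06 and that of all genes to −0.03. In all, 27 members were called in at least 1 comparison and 52 in none.

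**Figure D2:**
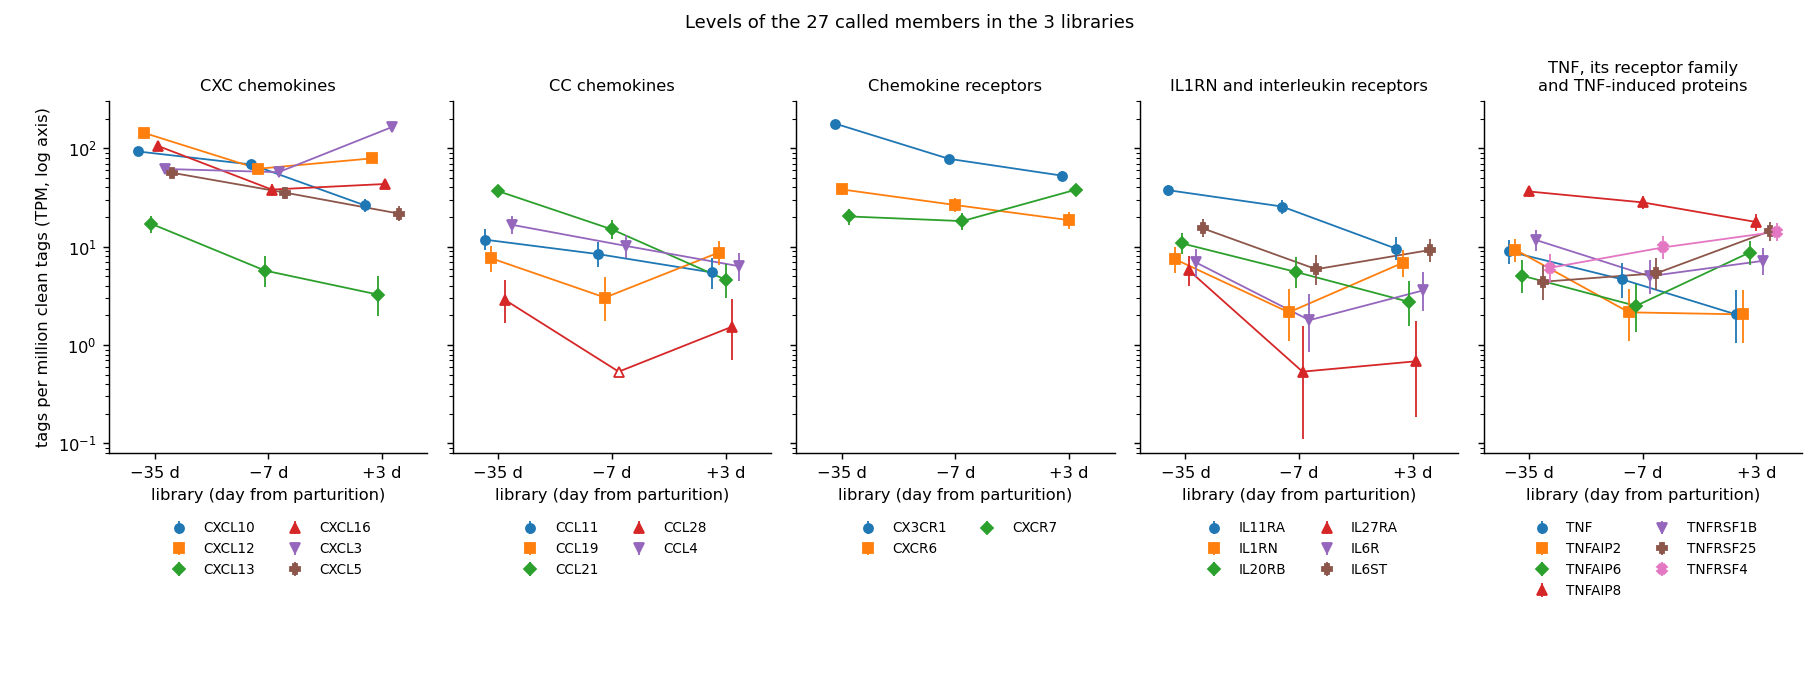
Level of each of the 27 called members in the 3 libraries, in TPM on a log axis, grouped by role; bars are 95% Poisson intervals of the tag count (counting error only), lines only join the libraries, and the open symbol marks CCL28 at 0 tags, drawn at the level of 3 tags. CXCL3 rose from 57.2 TPM at −7 d to 165 TPM at +3 d, while CCL21 went from 36.7 TPM at −35 d to 4.62 TPM at +3 d.

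CXC chemokines were lower in 3 of 11 cases and higher in 0 in stage I. In stage II 1 of the 10 tested was higher and 1 lower, and TMM scaling made this 2 and 1. From −35 d to +3 d 1 of 11 was higher and 4 lower, which became 1 and 2 after TMM scaling. Their summed level was 979.3, 620.2 and 960.3 TPM, of which CXCL14 held 50.8, 56.3 and 64.0%.

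CXCL12, a chemokine made by stromal cells that retains CXCR4-bearing cells, was counted at 143, 62.0 and 79.0 TPM at −35 d, −7 d and +3 d. It fell 2.31-fold in stage I (95% interval 2.03 to 2.62, Audic-Claverie FDR = 3.39e-41), so the dry-gland library stood above both later ones. Its signalling receptor CXCR4 had 278, 289 and 271 tags, or 47.0, 51.7 and 46.4 TPM. Under library totals no CXCR4 ratio exceeded 1.11-fold. Its atypical receptor CXCR7 stood at 20.3, 18.2 and 38.0 TPM and rose 2.08-fold in stage II (1.64 to 2.66, Audic-Claverie FDR = 1.79e-09). From −35 d to +3 d CXCR7 was 1.87-fold higher (1.49 to 2.36), which passed the rule only after TMM scaling. So under library totals the −35 d library was highest for the ligand and the +3 d library for CXCR7, while those of CXCR4 lay close together. TMM scaling changed the log2 ratio from −35 d to +3 d to −0.36 for CXCL12 and 0.48 for CXCR4, both without a call.

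CXCL16, a transmembrane chemokine and scavenger receptor, was at 106, 38.1 and 43.4 TPM. It fell 2.77-fold in stage I (2.37 to 3.26, Audic-Claverie FDR = 3.09e-41) and stayed 2.43-fold lower from −35 d to +3 d, a call that TMM scaling removed (log2 ratio −0.78). Its receptor CXCR6, carried by T and NK cells, had 38.2, 26.5 and 18.6 TPM. CXCR6 was 2.05-fold lower at +3 d than at −35 d (1.62 to 2.60), also lost after TMM scaling. The steps differ by gene: the ligand's drop was called in stage I, and that of the receptor was called only over the whole span.

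CXCL10, induced by interferon and drawing activated T cells, had 550, 383 and 154 tags, or 93.0, 68.5 and 26.3 TPM. In stage I its 1.36-fold lower level passed the FDR but not the fold. It fell 2.60-fold in stage II (2.15 to 3.15, Audic-Claverie FDR = 1.16e-24) and 3.53-fold from −35 d to +3 d. CXCL11, its neighbour in the genome and a ligand of the same receptor, had 3, 0 and 0 tags, and that receptor, CXCR3, had 2, 0 and 0. The latter counts are too low for a ratio.

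CXCL13, which draws B cells into follicles, had 101, 32 and 19 tags, or 17.1, 5.72 and 3.25 TPM. It fell 2.98-fold in stage I (1.99 to 4.59, Audic-Claverie FDR = 6.87e-08) and 5.25-fold from −35 d to +3 d (3.20 to 9.09). B cell markers beside it included MS4A1, which encodes CD20, at 3.89, 1.97 and 2.91 TPM, and CD79A at 11.0, 7.51 and 9.92 TPM. Of the 8 B cell and plasma cell markers listed, 0 were called in any comparison, and XBP1 was at 0 at −7 d. Their summed level without the most abundant, IGLL1, was 330.5, 187.5 and 202.9 TPM, and its part in the CXCL13 result was not tested.

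The genes of the neutrophil-attracting chemokines IL8, CXCL5, CXCL2 and CXCL3 lie in this order in the bovine assembly ARS-UCD2.0, with at most 2 other genes between neighbours, but differed in direction. CXCL3 is the entry that the deposited tables name CXCL2 and RefSeq now names CXCL3. CXCL3 had 365, 320 and 963 tags, or 61.7, 57.2 and 165 TPM, and was the only CXC chemokine called higher without TMM scaling. It rose 2.88-fold in stage II (2.53 to 3.28, Audic-Claverie FDR = 1.84e-67) and 2.67-fold from −35 d to +3 d (2.36 to 3.02). CXCL5 went the other way, with 56.5, 35.4 and 21.7 TPM, and was 2.60-fold lower at +3 d than at −35 d (2.11 to 3.21, Audic-Claverie FDR = 4.96e-21), a call lost under TMM scaling. Counts were small for CXCL2 (7, 7 and 16 tags) and IL8 (6, 0 and 5 tags). Near-identical copies exist in this cluster and tags shared by several genes were discarded upstream, so the split of counts between CXCL2 and CXCL3 is uncertain. Among 9 listed neutrophil markers, 1 was lower in stage I (MMP9), 0 were called in stage II and 2 were lower over the whole span (MMP9 and LTF), and the calprotectin genes S100A8 (8.12, 3.93 and 5.82 TPM) and S100A9 (7.44, 3.75 and 4.96 TPM) were not called. Without lactoferrin the markers summed to 76.6, 63.3 and 69.1 TPM, S100A12 was at 0 at −35 d and +3 d, ELANE at −7 d and MMP9 at +3 d. The part of neutrophils in the CXCL3 and CXCL5 results was not tested.

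CXCL14, a chemokine of epithelia and stroma, had the most tags of all members, 2941, 1954 and 3592, or 497, 349 and 614 TPM. All its ratios passed the FDR and stayed under 2-fold: it was 1.42-fold lower in stage I, 1.76-fold higher in stage II (1.66 to 1.86) and 1.24-fold higher over the whole span. TMM scaling took the stage II ratio past 2-fold (log2 ratio 1.12). CXCL17, a mucosal chemokine, had 13, 15 and 22 tags and was not called.

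Among the 13 CC chemokines, 2 were lower and 0 higher in stage I, 1 was higher and 1 lower in stage II, and 3 were lower and 0 higher from −35 d to +3 d. TMM scaling left the stage counts as they were and reduced the last to 1 lower. Their sum moved little, at 276.8, 247.4 and 236.9 TPM.

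CCL21 and CCL19 are the ligands of CCR7, which leads dendritic cells and naive T cells into lymphatics and lymph nodes, and their genes lie near each other in the bovine genome. CCL21 had 217, 84 and 27 tags, or 36.7, 15.0 and 4.62 TPM, and was the only member called in all 3 comparisons. It fell 2.44-fold in stage I (1.89 to 3.18), 3.25-fold in stage II (2.09 to 5.22) and 7.94-fold over the whole span (5.31 to 12.3, Audic-Claverie FDR = 2.11e-36). CCL19 had 45, 17 and 51 tags, or 7.61, 3.04 and 8.72 TPM. It rose 2.87-fold in stage II (1.63 to 5.30, Audic-Claverie FDR = 0.000254), after a stage I ratio of 2.50-fold lower that missed the FDR. The 2 ligands of CCR7 thus had opposite calls in stage II, with CCL21 lowest and CCL19 highest at +3 d.

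CCR7 had 15, 8 and 8 tags, and no ratio of it was called. CCRL1, the atypical receptor that removes CCL19, CCL21 and CCL25 and whose symbol is not among the members, had 12, 10 and 71 tags, or 2.03, 1.79 and 12.1 TPM. It rose 6.79-fold in stage II (log2 ratio 2.76, 95% interval 1.80 to 3.89, Audic-Claverie FDR = 3.60e-11). CCL25, the third ligand, had 22.0, 32.7 and 22.8 TPM and was not called. CCL21 is itself made by lymphatic endothelium, whose markers did not all move with it. LYVE1 stood at 5.41, 4.83 and 10.8 TPM, and podoplanin (PDPN) had 2, 0 and 0 tags. In the 11-gene endothelial list CCL21 gave the only lower calls in stages I and II, KDR joined it over the whole span (lost under TMM scaling), and CLDN5 was higher in stage II. TMM scaling added LYVE1 as higher in stage II, and LYVE1, ENG and CLDN5 as higher over the whole span, opposite to CCL21. The list summed to 252.1, 234.4 and 316.5 TPM, CCL21 included, and its part in the CCL21 result was not tested.

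CCL28, a mucosal chemokine that attracts IgA-producing plasma cells and is known in the lactating gland, had 17, 0 and 9 tags, or 2.87, 0 and 1.54 TPM. It was at least 5.36-fold lower at −7 d than at −35 d, counted against 3 tags (Audic-Claverie FDR = 7.33e-05). At +3 d it was 2.87-fold higher than 3 tags at −7 d, without passing the FDR (0.00718). The interval of that log2 ratio began at 0.92. IGJ, the J chain of secreted IgA, had 282.9, 149.5 and 160.3 TPM and was not called, with −35 d again the highest library. The part of plasma cells in the CCL28 result was not tested.

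The inflammatory CC chemokines gave a mixed picture. CCL4, released by activated T cells and macrophages, had 16.7, 10.2 and 6.33 TPM and was 2.64-fold lower at +3 d than at −35 d (1.80 to 3.97, Audic-Claverie FDR = 5.04e-07), a call lost under TMM scaling. CCL5, a product of T cells, had 78.1, 64.7 and 83.0 TPM and was not called. CCL3 had 6, 3 and 12 tags and CCL14 had 239, 181 and 207 tags. Of these 4 chemokines, whose genes lie in 1 stretch of the genome, only CCL4 was called. CCR1, a receptor of CCL3 and CCL5, had 35, 20 and 22 tags and was not called.

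In another group of neighbouring genes, for monocyte and eosinophil attractants, CCL11 (eotaxin) had 11.8, 8.40 and 5.47 TPM and was 2.16-fold lower at +3 d than at −35 d (1.40 to 3.40, Audic-Claverie FDR = 0.000595), lost under TMM scaling. CCL2, the main monocyte chemokine, had 54.6, 74.6 and 61.6 TPM. Its 1.37-fold higher level in stage I (1.18 to 1.58) passed the FDR without reaching 2-fold, and −7 d was its highest library. CCL8 had 2, 3 and 4 tags. CCL22 and CCL24 had 4 to 5 and 22 to 26 tags and were not called.

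CX3CR1, the fractalkine receptor of monocytes and tissue macrophages, had the most tags of the 9 chemokine receptors, with 1056, 438 and 308, or 178, 78.3 and 52.7 TPM. It fell 2.28-fold in stage I (2.04 to 2.55, Audic-Claverie FDR = 4.50e-50) and 3.39-fold from −35 d to +3 d (2.98 to 3.86). Under TMM scaling the first of these ratios came to just under 2-fold and its call was lost, while the second was kept (log2 ratio −1.26). In stage II it was 1.49-fold lower, which passed the FDR only. The levels of CX3CR1 declined from library to library, unlike those of several macrophage markers.

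Macrophage markers had their own course. Of the 10 listed, 3 were lower in stage I (CD68, CSF1R and CD163), 3 were higher in stage II (CSF1R, CD163 and CD14), and 2 were higher over the whole span (CD163 and CD14), and TMM scaling added C1QB as higher to the last 2 of these comparisons. Their sum was 399.2, 295.4 and 506.3 TPM, so +3 d was the highest library, and MSR1 was at 0 at −7 d. CD163 had 7.78, 1.97 and 19.8 TPM and CD14 had 2.87, 4.29 and 19.7 TPM. CD68 stood at 5.92, 0.894 and 2.05 TPM. The part of macrophage content in the results on CX3CR1, CCL2 or CXCL16 was not tested.

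The remaining chemokine receptors were scarce. CCR4 had 2, 0 and 3 tags and CXCR3 is given above. Over the 9 receptors, 1 was lower in stage I (0 after TMM scaling), 1 was higher in stage II, and 2 were lower from −35 d to +3 d (1 lower and 1 higher after TMM scaling).

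**Figure D3:**
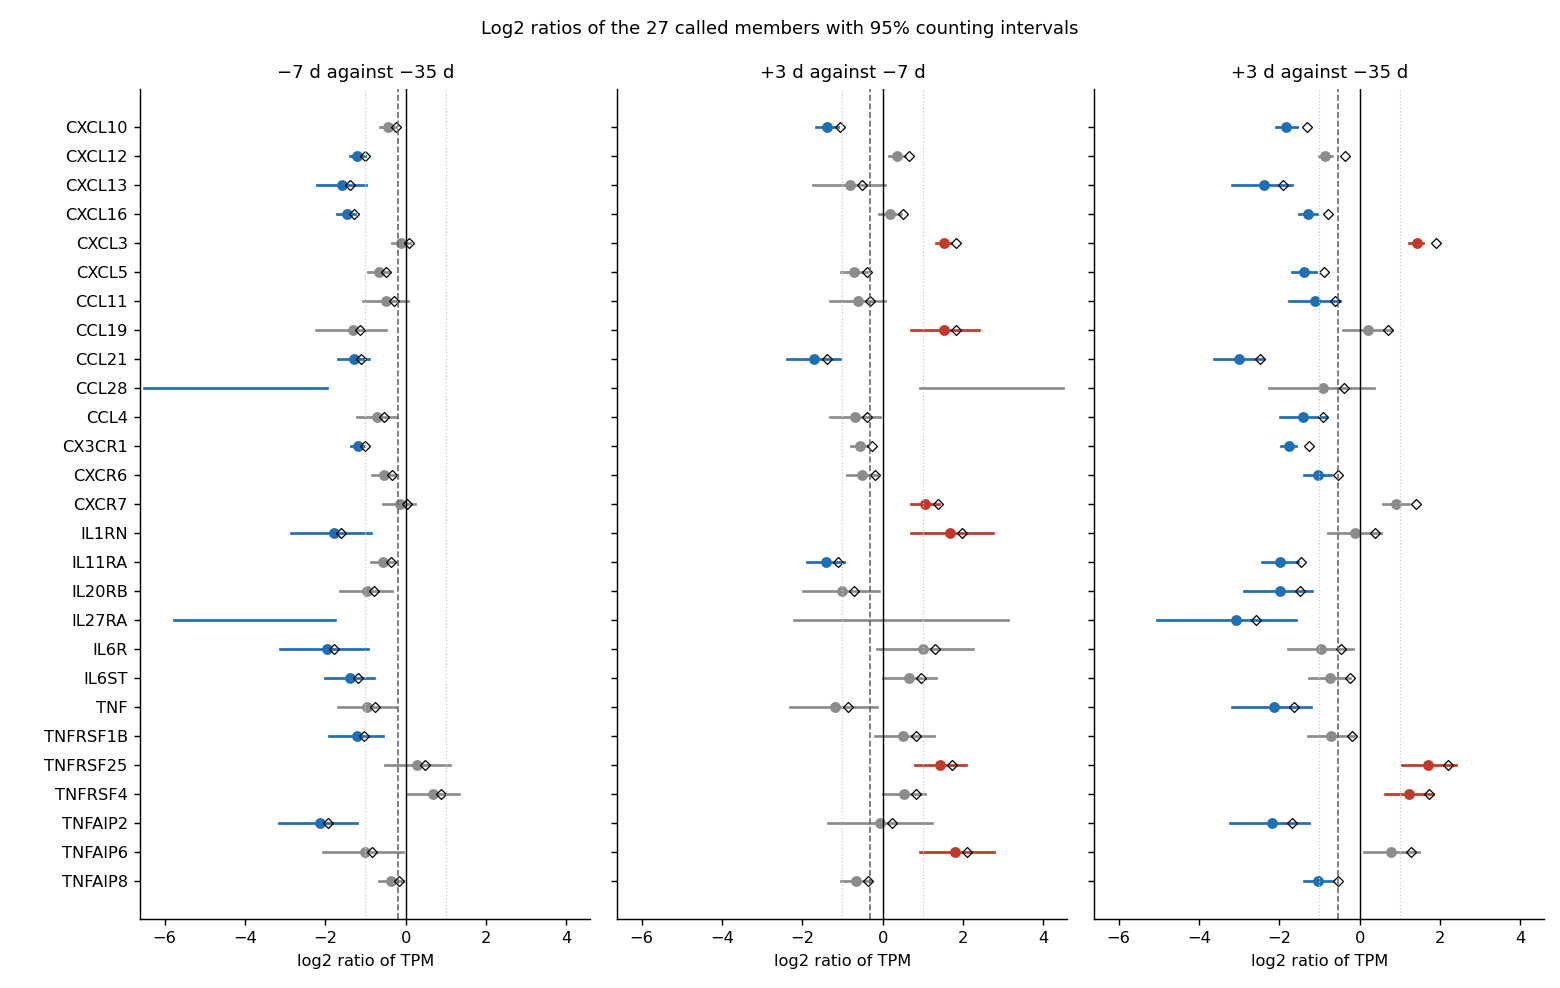
Log2 ratio of TPM for each called member in stage I (left), stage II (middle) and from −35 d to +3 d (right); filled points and bars are ratios with 95% counting intervals (red higher, blue lower, grey not called), open diamonds the TMM-scaled ratios, the dashed line the median of all genes, and bars without a point belong to pairs with 3 or fewer tags in a library. All 12 stage I calls lie left of 0 (9 after TMM scaling), and the TMM diamonds sit 0.50 to the right of the points in the right panel.

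Interleukins and colony stimulating factors gave few calls: of 15 members 1 was lower in stage I (0 after TMM scaling), 1 of 12 tested was higher in stage II (3 after TMM scaling), and 0 of 14 were called over the whole span (2 higher after TMM scaling). Classical inflammatory interleukins were at the edge of detection. IL6 and IL10 had 2 tags at −35 d and 0 in the other libraries, and so did IL2. IL1B had 0, 2 and 2 tags and IL7 had 0, 2 and 0. IL15, which sustains T and NK cells, had 8, 4 and 3 tags. A change in these genes was not detectable at this depth.

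IL1RN, the natural antagonist of the interleukin 1 receptor, had 44, 12 and 40 tags, or 7.44, 2.15 and 6.84 TPM. It fell 3.47-fold in stage I (1.80 to 7.21, Audic-Claverie FDR = 0.000176), a call that was lost under TMM scaling, and rose 3.19-fold in stage II (1.64 to 6.68, Audic-Claverie FDR = 0.000583). The −7 d library was thus low between a pair of similar ones. The agonist IL1A had 15, 7 and 24 tags, with a stage II ratio of 3.28-fold higher (1.37 to 9.02) that missed the FDR (0.00907). The receptor accessory chain IL1RAP had 6, 9 and 5 tags. SIGIRR, an inhibitory receptor of the same family whose symbol is not among the members, went from 20.5 TPM at −35 d to 46.0 TPM at +3 d and was 2.25-fold higher (log2 ratio 1.17, Audic-Claverie FDR = 1.29e-13).

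Other interleukins were more abundant in tags. IL34, which acts on the receptor CSF1R and sustains macrophages, had 86.1, 72.9 and 94.9 TPM and reached at most 1.30-fold. CSF1, the other ligand of that receptor, had 0, 3 and 3 tags. CSF1R itself, not a member, had 52.1, 22.5 and 54.4 TPM, and was 2.31-fold lower in stage I (Audic-Claverie FDR = 2.18e-15) and 2.41-fold higher in stage II (Audic-Claverie FDR = 1.99e-17). The receptor's level was therefore lowest at −7 d, where that of IL34 was lowest too, without a call.

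IL33, an alarmin of epithelial and endothelial nuclei, had 35.0, 27.9 and 54.2 TPM, and was 1.94-fold higher in stage II (1.60 to 2.37, Audic-Claverie FDR = 2.52e-11). IL16, which attracts CD4+ cells, had 18.4, 16.3 and 29.8 TPM and was 1.83-fold higher (1.41 to 2.38). Both were highest at +3 d and passed the call rule only after TMM scaling, in stage II and over the whole span. IL18, which induces interferon gamma, had 22.0, 12.2 and 11.8 TPM, and its 1.81-fold lower level in stage I passed the FDR but not the fold. CSF3, the granulocyte colony stimulating factor, had 5.41, 9.83 and 5.30 TPM without a call, and IL27 had 24, 20 and 22 tags.

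Of 13 interleukin receptors, 3 were lower in stage I, 1 of 11 was lower in stage II and 3 of 13 were lower from −35 d to +3 d, with 0 higher throughout. TMM scaling left each of these counts the same. Of all genes tested, 6.45, 10.4 and 16.3% were lower and 2.62, 3.12 and 2.33% higher in these comparisons under library totals. With so small a share of higher calls, 0 higher among 13 members is close to that of all genes. Their sum was 151.2, 89.4 and 82.5 TPM.

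The stage I calls fell on chains of the interleukin 6 receptor family. IL6R, the chain that binds interleukin 6, had 41, 10 and 21 tags, or 6.93, 1.79 and 3.59 TPM, and fell 3.88-fold (1.91 to 8.68, Audic-Claverie FDR = 0.000122). IL6ST (gp130), the signalling chain shared by interleukins 6, 11 and 27, had 15.4, 5.90 and 9.24 TPM and fell 2.61-fold (1.73 to 4.01, Audic-Claverie FDR = 4.72e-06). IL27RA, the partner of gp130 for interleukin 27, had 34, 3 and 4 tags, or 5.75, 0.536 and 0.684 TPM, and the ratio of −7 d to −35 d was 0.0933 (0.0183 to 0.297, Audic-Claverie FDR = 1.29e-06). For these 3 chains the −35 d library was the highest and the −7 d library the lowest. IL27RA remained 8.40-fold lower at +3 d than at −35 d (3.00 to 32.6), while IL6R and IL6ST, at 1.93-fold and 1.67-fold lower, did not pass.

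IL11RA, the chain that binds interleukin 11, had 37.5, 25.6 and 9.58 TPM. It fell 2.67-fold in stage II (1.95 to 3.70, Audic-Claverie FDR = 4.40e-10) and 3.92-fold over the whole span (2.91 to 5.35). In stage I, where IL6R and IL6ST were called, it was 1.47-fold lower (1.18 to 1.82) and not called (Audic-Claverie FDR = 0.00131). OSMR, which pairs with gp130 for oncostatin M and is not a member, went from 26.9 TPM at −35 d to 10.7 TPM at −7 d, 2.51-fold lower (Audic-Claverie FDR = 1.99e-09). IL20RB, a chain for the interleukin 20 group, had 10.8, 5.54 and 2.74 TPM and was 3.95-fold lower at +3 d than at −35 d (2.26 to 7.33, Audic-Claverie FDR = 2.49e-07).

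Chains of lymphocyte receptors were not called. IL2RG, the common gamma chain, had 22.8, 15.0 and 14.4 TPM, IL2RB had 7, 0 and 0 tags and IL2RA had 2, 4 and 3 tags. IL4R had 16.2, 9.30 and 13.9 TPM. IL10RB, shared by interleukin 10 relatives, had 27.4, 22.0 and 24.8 TPM and no ratio above 1.25-fold. IL17RC, a chain for interleukin 17, had 32, 8 and 13 tags and came close to a call in stage I at 3.78-fold lower. IL18RAP had 2, 0 and 0 tags. T cell markers moved alongside: of 15 listed, 4 were lower in stage I (CD8B, TRAT1, LCK and CD3G), 1 was higher in stage II (CD8A) and 4 were lower over the whole span (1 after TMM scaling). They summed to 304.7, 190.8 and 193.0 TPM, while CD3E was at 48.5, 44.3 and 36.4 TPM and GZMA was at 0 at +3 d. The part of T cell content in the results on CXCR6, CXCL10, CCL4 or the interleukin receptors was not tested.

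TNF, the founding ligand of its family, had 53, 26 and 12 tags, or 8.96, 4.65 and 2.05 TPM. It was 4.37-fold lower at +3 d than at −35 d (2.30 to 8.98, Audic-Claverie FDR = 1.03e-06), and each single stage missed the FDR. The other 3 ligands were at or near the limit of 3 tags: TNFSF13 had 5, 3 and 3, TNFSF14 had 5, 4 and 2, and TNFSF8 had 0, 3 and 5.

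The receptors of TNF differed in direction. TNFRSF1A, the widely expressed receptor with a death domain, had 51.6, 46.1 and 79.2 TPM and was 1.72-fold higher in stage II (1.47 to 2.01, Audic-Claverie FDR = 1.27e-11). It passed the call rule only after TMM scaling, in stage II and over the whole span. TNFRSF1B, the receptor found mostly on leukocytes and endothelium, had 11.7, 5.01 and 7.18 TPM. It fell 2.33-fold in stage I (1.48 to 3.76, Audic-Claverie FDR = 0.000415), a call lost under TMM scaling.

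Higher levels after parturition were called for a pair of receptors known from T cells. TNFRSF25 (DR3) had 4.40, 5.36 and 14.4 TPM and rose 2.68-fold in stage II (1.75 to 4.21, Audic-Claverie FDR = 5.01e-06) and 3.27-fold over the whole span (2.08 to 5.29). TNFRSF4 (OX40) had 6.09, 9.83 and 14.2 TPM and was 2.33-fold higher at +3 d than at −35 d (1.56 to 3.55, Audic-Claverie FDR = 3.86e-05). With CXCL3 these were the only members called higher over the whole span under library totals. The summed level of the T cell markers was lower at +3 d than at −35 d. Lower calls among these markers over that span went from 4 to 1 under TMM scaling. The part of T cell content in the results on TNFRSF25 and TNFRSF4 was not tested. The decoy receptor TNFRSF6B had 10.8, 16.1 and 9.75 TPM and was not called, and TNFRSF21 had 15, 7 and 2 tags. TNFRSF9, TNFRSF19 and TNFRSF13C had 3 or fewer tags in every library.

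Members whose symbol begins with TNFAIP are grouped here as TNF-induced proteins and are no cytokines. TNFAIP8L1 and TNFAIP8L2 are named for their likeness to TNFAIP8 and not for a response to TNF. TNFAIP2 had 55, 12 and 12 tags, or 9.30, 2.15 and 2.05 TPM, and fell 4.33-fold in stage I (2.29 to 8.89, Audic-Claverie FDR = 1.64e-06), staying 4.53-fold lower over the whole span. TNFAIP6 (TSG-6), a secreted hyaluronan-binding protein, had 5.07, 2.50 and 8.72 TPM and rose 3.49-fold in stage II (1.90 to 6.82, Audic-Claverie FDR = 3.06e-05). TNFAIP8, a regulator of cell death, had 36.4, 28.2 and 17.8 TPM and was 2.04-fold lower over the whole span (1.61 to 2.61), lost under TMM scaling. So TNFAIP2 and TNFAIP8 were lower over the span in which TNF was. TNFAIP6 was 1.72-fold higher over that span (1.07 to 2.80), which passed the call rule only after TMM scaling (log2 ratio 1.28). TNFAIP8L1 and TNFAIP8L2, with 41, 29 and 18 and with 8, 0 and 3 tags, were not called. A link of these genes to the level of TNF was not tested.

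Signal carriers downstream of these receptors were described from separate lists. Of 29 listed genes of NF-kB, TNF and interleukin 1 signalling, 1 was higher and 1 lower in stage I (IKBKE and TNIP1), 0 were higher and 2 lower in stage II (IKBKE and TRADD), and 2 were lower over the whole span (TRADD and BIRC3). TMM scaling removed the last 4 calls and added MAP3K7 in stage I, TNIP1 in stage II and RELA over the whole span, all as higher, so that the lower calls were 1, 0 and 0. Of 15 listed JAK-STAT and SOCS genes, 0 were called in either stage and 2 were lower over the whole span (CISH and SOCS4), both lost under TMM scaling. The lists' medians in stage I were −0.28 and −0.49 on the log2 scale, beside −0.19 for all genes and −0.58 for the members.

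**Figure D4:**
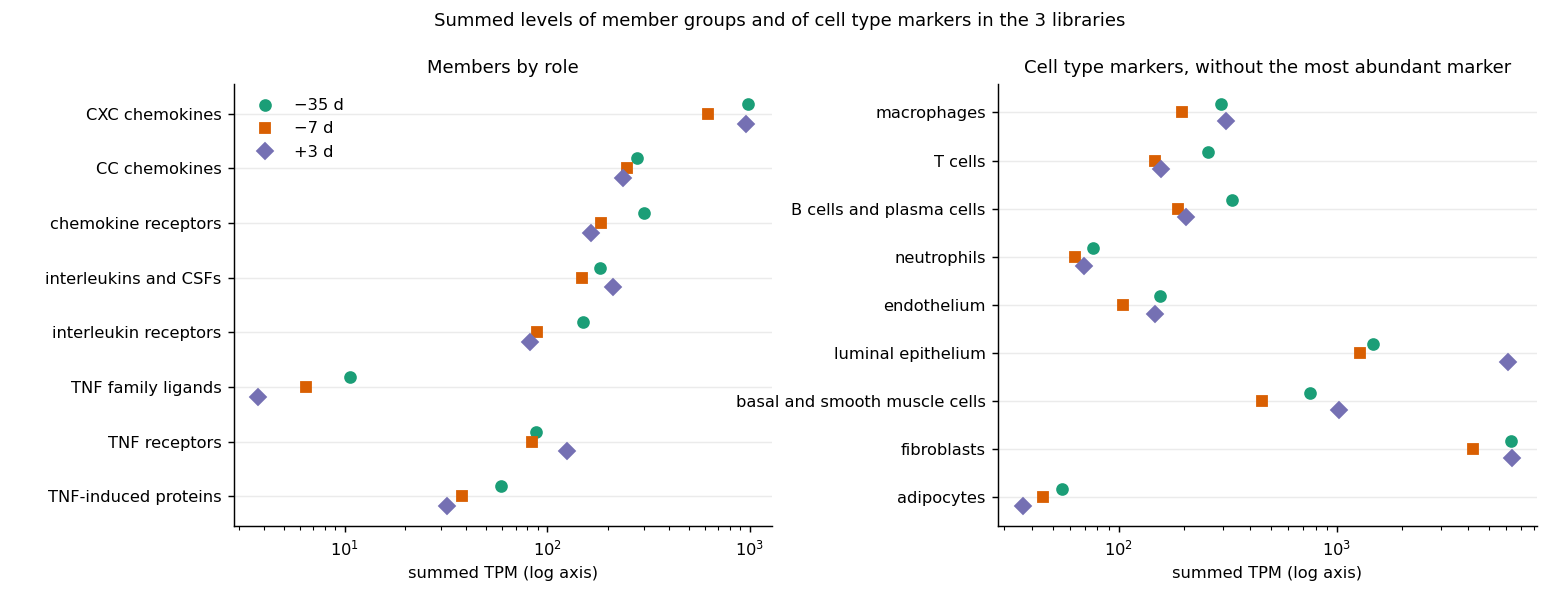
Summed TPM, on a log axis, of the members in each of the 8 role groups (left) and of 9 lists of cell type markers without the marker most abundant in the library (right), in the 3 libraries; there are no replicates. CXC chemokines stand at 979.3, 620.2 and 960.3 TPM and TNF family ligands at 10.7, 6.44 and 3.76 TPM, while the T cell markers stand at 256.2, 146.4 and 156.5 TPM without CD3E. In the basal and fibroblast lists the marker left out differs between libraries, so their points sum different genes.

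Markers of the structural cells moved as well. Of 8 fibroblast markers 1 was lower in stage I and 2 were higher in stage II, and they summed to 8733, 6269 and 9637 TPM. Of 8 basal and smooth muscle markers, 2 were lower in stage I and 4 higher in stage II, with sums of 970.3, 576.1 and 1316 TPM. Of 8 luminal markers, 2 were higher and 2 lower in stage I, and 3 higher and 1 lower in stage II, led by CSN2 and LALBA. Of 5 adipocyte markers, 1 was lower in stage I and 1 higher in stage II, with sums of 208.0, 136.6 and 280.7 TPM. TMM scaling reduced the lower stage I calls of the last 3 lists to 1, 1 and 0. The low point of the members' sum at −7 d was shared by the fibroblast, basal, adipocyte, macrophage, T cell and endothelial marker sums. The luminal, B cell and neutrophil sums had it only without their most abundant marker. The adipocyte sum had it only with FABP4, and without FABP4 was 55.1, 45.2 and 36.4 TPM, lowest at +3 d. The part of the structural cells in the results on CXCL12, CXCL14 or IL34 was not tested.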

How the data were processed

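Tissue of 6 cows was pooled for each of 3 libraries. The authors cut cDNA with NlaIII, sequenced tags of CATG plus 17 bases (21 bases) on an Illumina HiSeq, and removed adaptor tags, tags with unknown bases or of wrong length, and tags with 1 copy. Clean tags were matched to UMD 3.1 gene sequences with up to 1 mismatch, and tags matching several genes were dropped. The aligner is not given in the sources used here. The deposited tables give, per gene, tag counts and TPM (tags scaled to 1000000 clean tags) calculated by the authors. The deposited TPM were recomputed from counts and agreed within 0.0050. A gene absent from a library's table was taken as 0 tags. Depth per library is given with the results.

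Here, each pair of libraries was compared over all genes with a tag in either, using the Audic-Claverie test (SciPy 1.17.1) with Benjamini-Hochberg adjustment, at an FDR of at most 0.001 and 2-fold, with the study's test and thresholds, and with 0 TPM set to 0.01 TPM, a value chosen here. Ratios have exact binomial 95% intervals and levels exact Poisson ones. No fold is given where a library has 3 or fewer tags, other than a fold counted against 3 tags or a ratio with its interval. Medians use 0.5 added tags and genes averaging 1 TPM or more. Members were found by symbol prefix, and every called member and the 10 members with the highest mean TPM are named. Genes outside the members are named from 13 gene lists, where not every called gene is named. The members and lists were chosen with earlier results of these data known. Alternatives were TMM (edgeR 4.0.16), DESeq2 1.42.0 size factors, totals without genes above 1% of tags, Fisher's exact test, an edgeR fit in which replicate pools were assumed to vary by 0.2 or 0.4, and other thresholds and filters. The test was tested on simulated counts first. Names and gene order came from RefSeq on ARS-UCD2.0, which is not the authors' build, so no positions are given. Sequences of the members' tags were not used here. The values of 1 member are not reported here.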

Additional observations from a re-analysis of the deposited data

How the results depend on the processing

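No paired analysis was possible because each time had 1 library, and no library could be left out. Of the 39 calls of members, 30 held under TMM scaling and under DESeq2 size factors, 35 with totals without genes above 1% of tags, and 39 with Fisher's exact test or 0.5 added tags; 0 turned direction. TMM and DESeq2 scaling gave 10 members higher in stage II, as did totals without genes above 1%, and from −35 d to +3 d 8 higher and 9 lower (5 higher without genes above 1%). An assumed coefficient of variation of 0.2 left 0 calls in either stage and 2 lower over the whole span, and 0.4 left 0. A 3-fold threshold left 5 lower in stage I, 2 higher and 1 lower in stage II, and 1 higher and 9 lower over the whole span. With 2-fold alone the counts were 4 higher and 26 lower, 15 and 7, and 8 and 30. Median log2 ratios of the members under TMM and DESeq2 were −0.39 and −0.38 in stage I, 0.41 and 0.42 in stage II, and 0.06 and 0.08 over the whole span, the last pair reversed; without genes above 1% they were 0.41 in stage II and −0.07 over the whole span. A minimum of 5 TPM reversed the stage II median to −0.04 and gave −0.23 over the whole span, and no filter gave −0.64 over the whole span. Among the 78 counts of called genes in the 13 gene lists, 23 moved by over 1.5 times under TMM scaling, to 0 to 3 genes, and 26 with 2-fold alone, to 1 to 7 (1, 2, 3, 4, 5, 6 or 7). The alternative of at least 12 tags over the pair was chosen after seeing the data. For results that changed, the cause was not tested beyond the scaling itself.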

Other observations

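Several genes of cytokine signalling and leukocyte homing whose symbols lie outside the members also changed. SPP1 (osteopontin), a secreted phosphoprotein that also occurs in milk, had 5637, 333.3 and 524.3 TPM in the libraries of −35 d, −7 d and +3 d, and fell 16.9-fold in stage I. NGFR, a TNF receptor family member and receptor of neurotrophins, had 533, 354 and 32 tags and fell 11.6-fold in stage II (log2 ratio −3.53, 95% interval −4.10 to −3.01). KIT, the receptor of stem cell factor, had 51.4, 119.3 and 39.2 TPM, rose 2.32-fold in stage I and fell 3.04-fold in stage II, so that its level was highest at −7 d. RARRES2 (chemerin), a chemoattractant, had 29.8, 13.4 and 36.4 TPM and rose 2.72-fold in stage II, and its stage I call was lost under TMM scaling. CCRL2, which binds chemerin, had 35, 8 and 18 tags. Of the 26 listed genes of this kind, 1 was higher and 6 lower in stage I, 3 higher and 3 lower in stage II, and 2 higher and 4 lower from −35 d to +3 d; TMM scaling made these 2 and 3, 4 and 2, and 3 and 3.

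Among 19 listed genes of leukocyte adhesion and homing, 3 were lower in stage I: ITGB1, the integrin chain ITGB2 of leukocytes (40.2 to 14.8 TPM, 2.71-fold), and VCAM1, the endothelial ligand for lymphocyte integrins (37 to 4 tags, 8.75-fold). From −35 d to +3 d ITGB7, a chain of gut and mucosal homing integrins, fell 3.04-fold. GLYCAM1, whose product is a milk component in cattle, had 4.06, 94.2 and 3840 TPM, and was higher in both stages.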
